A study of Homo sapiens with 12 samples.

Results

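The 10 genes described here encode the transcriptional co-activators YAP and TAZ (*YAP1* and *WWTR1*), their DNA-binding partner *TEAD1*, and 7 genes known as targets or regulators of this complex (*LATS2*, *CCN1*, *CCN2*, *ANKRD1*, *AMOTL2*, *AJUBA* and *CRIM1*). They were taken by gene symbol from a table of 43236 symbols, and all 10 had enough reads to be tested among 15979 genes. RNA was sequenced from MNNG/HOS cells, an established human osteosarcoma line named HOS-MNNG in the sample labels, that received DMSO, the solvent control, or 300 nM NXP800, an orally available small molecule, for 6 h or 24 h. Each of the 4 groups (DMSO 6 h, NXP800 6 h, DMSO 24 h and NXP800 24 h) had 3 libraries of polyadenylated RNA, numbered 1 to 3. All 12 came from this single line in culture with no genetic change named in the labels, and the p-values measure the spread between these libraries. The study's methods state for its experiments in general that repeats were independent, while the labels do not say from which culture each of the 3 libraries of a group came.

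The Hippo pathway is a kinase cascade in which MST kinases activate LATS kinases, which phosphorylate YAP and TAZ and keep them in the cytoplasm. When the cascade is off, as in spread cells on stiff matrix, YAP and TAZ enter the nucleus, bind TEAD factors and drive genes such as *CCN1*, *CCN2* and *ANKRD1*. Several targets, among them *LATS2*, *AMOTL2* and *AJUBA*, encode proteins that act back on the pathway, and YAP activity has been studied in osteosarcoma as in many solid tumours. mRNA levels do not show the phosphorylation or location of YAP and TAZ.

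Each library held between 30810614 and 31947656 read pairs assigned to genes. Levels are given as CPM, a gene's count as a share of its library's total scaled to a common size, with libraries scaled by TMM (the trimmed mean of M-values). Read pairs that the counting assigned to no feature made up between 6.66% and 8.14% of a library at 6 h and between 2.73% and 3.67% at 24 h. The library sets of the time points thus differed in this respect within both treatments. Of 7 mesenchymal and osteoblast markers, *VIM*, *RUNX2*, *SPARC* and *COL1A1* were expressed, whereas *COL1A2*, *ALPL* and *SP7* had at most 12, 7 and 1 counts in any library. The summed level of this list, most of it *VIM*, lay between 5031 and 5220 CPM in DMSO 6 h, 4195 and 4333 CPM in NXP800 6 h, 5915 and 6766 CPM in DMSO 24 h, and 3798 and 4634 CPM in NXP800 24 h. *RUNX2*, the lineage factor of the list, went the other way and was higher with NXP800 at both times (log2 fold changes 0.71 and 0.36, edgeR adjusted p = 4.08e-05 and 0.00879). Of the markers of other cell types, *CDH1*, *KRT19*, *PTPRC*, *CD3E* and *CDH5* had at most 7 counts. *EPCAM* and *CD68* carried nearly all of the epithelial and haematopoietic lists and were higher with NXP800 at 24 h, where the summed level of the epithelial list was 10.1 to 10.2 CPM against 5.82 to 6.01 CPM in DMSO, and that of the haematopoietic list 120 to 154 CPM against 67.2 to 91.4 CPM. The endothelial list summed to at most 1.83 CPM in any library. The part of these markers in the results below was not tested.

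TEAD factors bind the motif CATTCC, which reads GGAATG on the other strand, and the sequences upstream of the known targets show where it lies. RefSeq windows on GRCh38.p14, from 250 bases before to 50 bases after an annotated start, were found for 7 of the 10 genes and gave 10 windows. *CCN1*, *TEAD1* and *CRIM1* had no entry. The 250 upstream bases are shown, in the direction of transcription, for *CCN2* (chr6:131951373-131951622, minus strand) and *ANKRD1* (chr10:90921088-90921337, minus strand), whose windows held more than 1 match, and for *AMOTL2* (second window, chr3:134374448-134374697, minus strand) and *YAP1* (chr11:102110197-102110446, plus strand), which had 1 match each. Capitals mark the TEAD motif.
CCN2: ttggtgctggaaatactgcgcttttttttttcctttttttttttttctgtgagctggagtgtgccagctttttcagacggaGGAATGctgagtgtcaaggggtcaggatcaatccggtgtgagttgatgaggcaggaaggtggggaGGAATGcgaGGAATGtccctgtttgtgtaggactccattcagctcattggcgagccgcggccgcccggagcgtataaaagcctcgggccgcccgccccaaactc
ANKRD1: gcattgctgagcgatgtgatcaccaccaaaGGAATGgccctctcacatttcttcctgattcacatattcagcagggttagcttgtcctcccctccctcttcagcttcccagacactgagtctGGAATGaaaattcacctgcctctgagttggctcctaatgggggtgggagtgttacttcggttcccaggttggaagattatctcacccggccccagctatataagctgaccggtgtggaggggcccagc
AMOTL2: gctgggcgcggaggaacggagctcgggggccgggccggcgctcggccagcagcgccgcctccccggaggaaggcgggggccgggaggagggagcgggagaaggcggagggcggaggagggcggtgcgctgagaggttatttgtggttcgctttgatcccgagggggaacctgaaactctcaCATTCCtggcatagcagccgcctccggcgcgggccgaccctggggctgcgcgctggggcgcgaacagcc
YAP1: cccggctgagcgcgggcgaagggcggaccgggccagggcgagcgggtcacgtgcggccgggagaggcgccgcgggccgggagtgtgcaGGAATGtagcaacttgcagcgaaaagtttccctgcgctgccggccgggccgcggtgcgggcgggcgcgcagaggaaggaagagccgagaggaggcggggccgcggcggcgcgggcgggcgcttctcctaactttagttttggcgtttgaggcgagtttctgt

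*CCN2* had 3 matches, at -169 to -164, -104 to -99 and -95 to -90 from its start, and 45 of all 35116 windows (0.128%) had 3 or more. *ANKRD1* had 2 matches, at -220 to -215 and -128 to -123, where 1.37% of all windows had 2 or more, and 1 match to the AP-1 motif TGANTCA at -195 to -189, which does not overlap them. *YAP1* (-162 to -157), *LATS2* (10 to 15 after the start), the second *AMOTL2* window (-69 to -64) and the second *AJUBA* window (-59 to -54) had 1 TEAD match each, and neither *WWTR1* window had any. In all, 6 of the 10 windows held the motif on either strand, against 14.03% of all windows. AP-1 matches occurred in 7.71% of all windows and CArG boxes, the motif of SRF, in 1.29%. No window of these genes held a CArG box, which says only that these letters are not in these 300 bases. A match to a short motif is a description of the sequence and does not show binding in these cells.

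**Figure D1:**
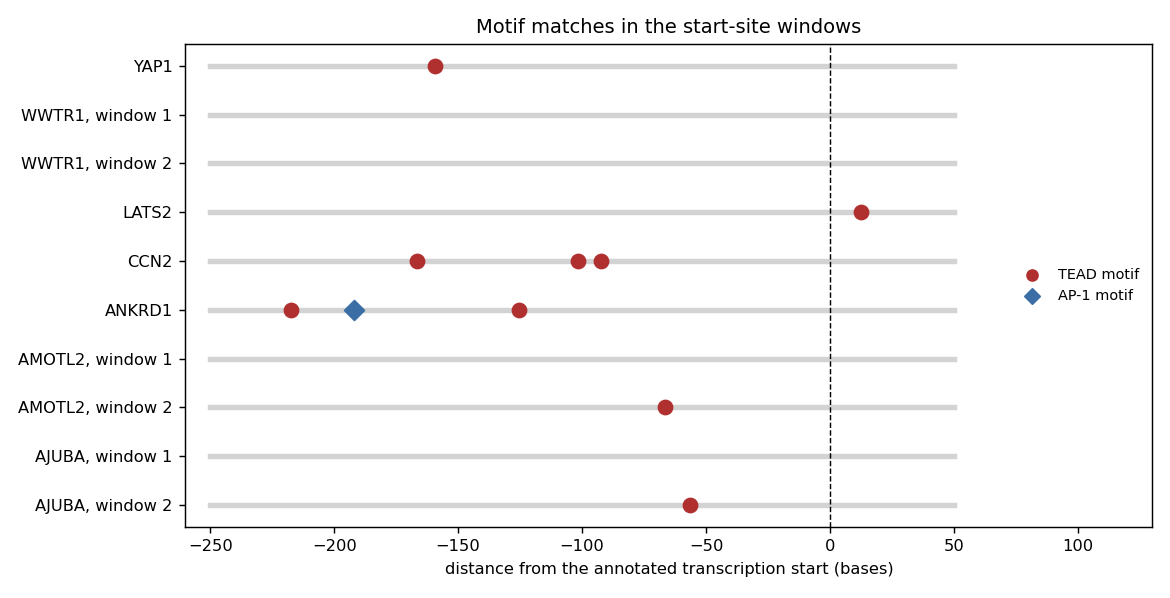
Matches to the TEAD motif (red circles) and the AP-1 motif (blue diamond) in the 10 windows of 7 genes, by distance in bases from the annotated transcription start (dashed line); grey bars are the windows of 300 bases. *CCN2* has 3 TEAD matches and *ANKRD1* has 2, all upstream of the start.

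At 24 h, *CCN1*, *CCN2*, *ANKRD1*, *AMOTL2*, *CRIM1* and *TEAD1* fell with NXP800 compared to DMSO and *YAP1* rose. At 6 h *CCN2* alone of the 10 fell, while *AJUBA* and *LATS2* rose. *CCN2* was the only one of the 10 called at both times in this fit, which leaves out the replicate numbers. A fit that uses them, given below, called more of the 10 at both times. A gene is called here when its adjusted p in edgeR's quasi-likelihood test, corrected over all 15979 genes, is below 0.05. At 6 h, 2 of the 10 genes were called higher and 1 lower, where 25.0% of all tested genes were called higher and 27.8% lower. At 24 h, 1 was called higher and 6 lower, where 27.5% of all genes were higher and 28.6% lower. The median log2 fold change of the 10 was 0.10 at 6 h and -0.37 at 24 h, against -0.046 and -0.0033 over all genes.

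**Figure D2:**
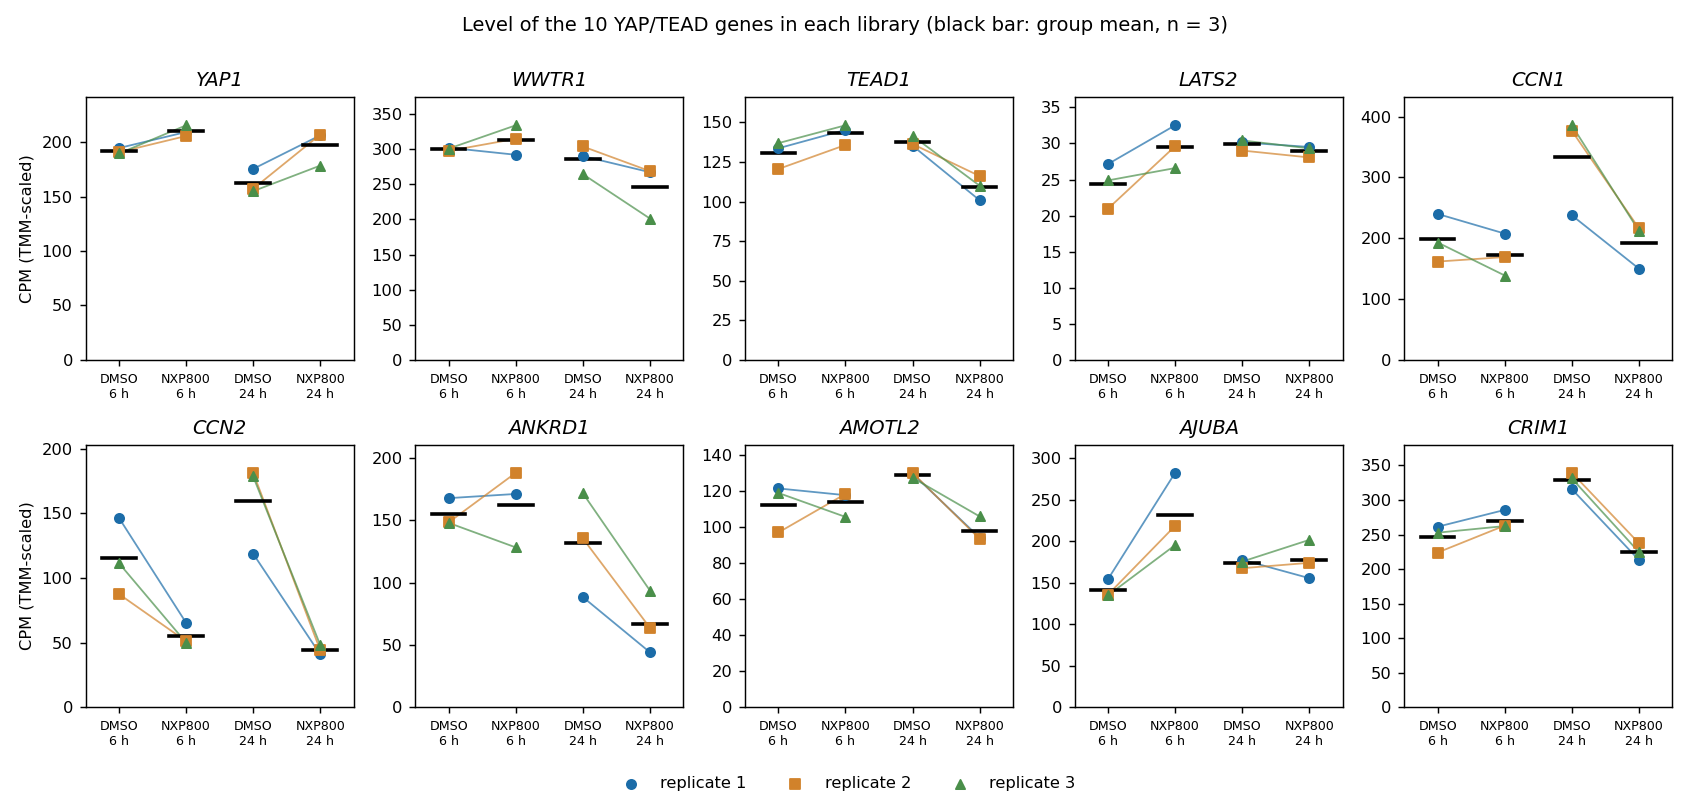
Level of each of the 10 genes in every library, in TMM-scaled CPM on axes that start at 0; colours and symbols mark the replicate number, thin lines join libraries of the same number within a time point, and black bars are group means (n = 3). *CCN2* is lower with NXP800 in every library at both times. *WWTR1*, *TEAD1*, *LATS2*, *CCN1*, *ANKRD1*, *AMOTL2* and *CRIM1* are lower in every pair only at 24 h, *LATS2* at ratios of just 0.964 to 0.979.

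Since treated and control libraries with the same replicate number deviated together within each time point, a fit with the replicate number as a block was also made. It called 5 of the 10 genes higher and 2 lower at 6 h, where 28.9% and 33.4% of all genes were called, and 1 higher and 7 lower at 24 h, where 32.0% and 33.1% were. With the block *CCN1* was also lower at both times, and *YAP1* was higher at both. *TEAD1* and *CRIM1* were then higher at 6 h and lower at 24 h. Values from the block are given where a call differs. Without regard to any fit, the NXP800 and DMSO libraries of a time point did not overlap for 3 genes that were higher and 1 that was lower at 6 h (29.3% and 32.7% of all genes) and for 1 higher and 5 lower at 24 h (29.0% and 30.1%).

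The genes of the co-activators moved by at most 0.28 on the log2 scale. *YAP1* (chromosome 11, 102110447 to 102233424, plus strand) was measured at 195, 191 and 190 CPM in DMSO 6 h and at 209, 206 and 215 CPM in NXP800 6 h. At 24 h it was at 175, 157 and 155 CPM in DMSO and at 206, 207 and 178 CPM in NXP800. All NXP800 libraries were above all DMSO libraries at both times, although the lowest NXP800 library at 24 h was just above the highest DMSO library. This made a log2 fold change of 0.13 ± 0.068 (SE, n = 3 and 3) at 6 h, with an adjusted p of 0.111 in edgeR and of 0.0250 with the replicate block, and 0.28 ± 0.068 at 24 h, with an adjusted p of 0.00226 in edgeR.

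*WWTR1*, which encodes TAZ (chromosome 3, 149517235 to 149724788, minus strand), was at 302, 298 and 301 CPM in DMSO 6 h and at 292, 315 and 334 CPM in NXP800 6 h. At 24 h the libraries were at 290, 304 and 264 CPM in DMSO and at 267, 269 and 201 CPM in NXP800. The groups overlapped at both times, and at 24 h each NXP800 library was below the DMSO library of its own number, with the library of replicate 3 lowest in both groups. At 24 h the difference was -0.22 ± 0.094 on the log2 scale, which did not pass the threshold in edgeR (adjusted p = 0.0560) and passed it with the replicate block (-0.23, adjusted p = 0.00168). At 6 h it was 0.063, with an adjusted p of 0.593 in edgeR. Of its exonic bases in the GENCODE annotation, 9.05% are shared with *WWTR1-AS1*, and 10.1% of those of *YAP1* with other annotated genes. The reads were counted on the RefSeq annotation, where these shares may differ. The library kit keeps the strand, but the strand setting of the counting is not given in the sources used here.

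*TEAD1* (chromosome 11, 12674421 to 12944737, plus strand) encodes the TEAD factor of the set. Its level was 134, 121 and 137 CPM in DMSO 6 h and 145, 136 and 148 CPM in NXP800 6 h, and the groups overlapped. At 24 h, DMSO libraries had 135, 136 and 141 CPM and NXP800 libraries 101, 116 and 110 CPM, with no overlap. Its log2 fold change was 0.13 ± 0.067 in the first comparison (edgeR adjusted p = 0.105, replicate block 0.0217) and -0.34 ± 0.067 in the second (edgeR adjusted p = 0.000465). Between the 2 times its response moved by -0.47 on the log2 scale (adjusted p = 0.00183 in edgeR).

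Among the target genes, *CCN2* (chromosome 6, 131948176 to 131951372, minus strand) had the largest fold changes of the 10. It encodes the secreted matricellular protein CTGF and is one of the best known YAP/TEAD targets. The libraries were at 146, 87.6 and 111 CPM in DMSO 6 h and at 65.4, 51.2 and 50.0 CPM in NXP800 6 h. At 24 h they were at 119, 181 and 179 CPM in DMSO and at 40.9, 44.1 and 48.2 CPM in NXP800. The groups did not overlap at either time, and the spread was wide among DMSO libraries (115 ± 29.6 and 160 ± 35.3 CPM, mean ± SD) and narrow with NXP800 (55.5 ± 8.55 and 44.4 ± 3.63 CPM). The ratio of NXP800 to the DMSO library of the same number lay between 0.447 and 0.584 at 6 h and between 0.243 and 0.345 at 24 h. Its log2 fold change was -1.05 ± 0.171 after 6 h (adjusted p = 8.04e-05 in edgeR) and -1.84 ± 0.175 after 24 h (2.18e-07). In RNA from whole cultures, loss of the transcript from some cells and less of it per cell cannot be told apart. Of its exonic bases in the GENCODE annotation, 11.9% are shared with *LINC01013*.

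*CCN1* (chromosome 1, 85580761 to 85583950, plus strand), which encodes the related protein CYR61, fell at 24 h. It was measured at 240, 162 and 193 CPM in DMSO 6 h and at 208, 169 and 139 CPM in NXP800 6 h, where the groups overlapped. At 24 h DMSO libraries had 238, 376 and 386 CPM and NXP800 libraries 150, 216 and 212 CPM. The groups did not overlap at 24 h, and replicate 1 was the lowest library in both of them, as it was the highest in both groups at 6 h. Paired by number, the ratios at 24 h were close to each other, from 0.550 to 0.631. On the log2 scale the fall at 24 h was -0.79 ± 0.189 (adjusted p = 0.00199 in edgeR). At 6 h it was -0.21 ± 0.188, with an adjusted p of 0.377 in edgeR and of 0.0184 with the replicate block, although 1 of the 3 pairs was not lower.

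*ANKRD1* (chromosome 10, 90912096 to 90921087, minus strand), which encodes an ankyrin repeat protein of the nucleus and the sarcomere, did not differ beyond its spread at 6 h, with 168, 148 and 148 CPM in DMSO and 171, 188 and 128 CPM in NXP800. At 24 h DMSO libraries had 88.4, 135 and 171 CPM and NXP800 libraries 44.1, 63.8 and 93.6 CPM. These groups overlapped by their extremes, since the highest NXP800 library (replicate 3) was above the lowest DMSO library (replicate 1). Within numbers, the ratio was 0.500, 0.471 and 0.546. In edgeR, its log2 fold change was 0.071 ± 0.226 after 6 h (adjusted p = 0.810) and -0.97 ± 0.231 after 24 h (0.00194).

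*CRIM1* (chromosome 2, 36355778 to 36551135, plus strand) encodes a transmembrane protein with cysteine-rich repeats that binds bone morphogenetic proteins. It was at 261, 224 and 253 CPM in DMSO 6 h and at 286, 263 and 262 CPM in NXP800 6 h, which left a narrow gap between the groups. At 24 h it was at 316, 339 and 331 CPM in DMSO and at 213, 237 and 225 CPM in NXP800, far apart relative to the spread within groups. Its log2 fold change was 0.14 ± 0.069 after 6 h (adjusted p = 0.111 in edgeR, 0.0184 with the replicate block) and -0.55 ± 0.069 after 24 h (5.50e-06 in edgeR). The ratio within numbers at 24 h was between 0.675 and 0.700.

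The remaining genes encode proteins that act on the pathway. *AMOTL2* (chromosome 3, 134355345 to 134375417, minus strand), an angiomotin family protein that binds YAP and holds it in the cytoplasm, was at 121, 96.9 and 119 CPM in DMSO 6 h and at 118, 118 and 106 CPM in NXP800 6 h, with overlapping groups. At 24 h it was at 130, 130 and 127 CPM in DMSO and at 94.1, 93.4 and 106 CPM in NXP800, so that all treated libraries were below all controls. edgeR gave log2 fold changes of 0.018 ± 0.081 after 6 h (adjusted p = 0.864) and -0.40 ± 0.081 after 24 h (0.000543).

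*AJUBA* (chromosome 14, 22971177 to 22982551, minus strand), a LIM domain protein that restrains LATS kinases, rose at the early time only. Its level was 154, 136 and 135 CPM in DMSO 6 h and 282, 218 and 195 CPM in NXP800 6 h, where every treated library was above every control. At 24 h it was 178, 167 and 175 CPM in DMSO and 156, 174 and 202 CPM in NXP800, where the treated libraries lay on both sides of the controls. The rise at 6 h was 0.71 ± 0.114 on the log2 scale (adjusted p = 6.86e-05), and after 24 h the value was 0.029 ± 0.113 (0.846, both in edgeR).

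*LATS2* (chromosome 13, 20973036 to 21061586, minus strand), the kinase that phosphorylates YAP and TAZ, had 27.2, 21.0 and 24.9 CPM in DMSO 6 h and 32.5, 29.6 and 26.6 CPM in NXP800 6 h. The lowest treated library (replicate 3) was below the highest control (replicate 1). At 24 h all 6 libraries were between 28.1 and 30.4 CPM. In edgeR, its log2 fold change was 0.28 ± 0.093 after 6 h (adjusted p = 0.0177) and -0.044 ± 0.092 after 24 h (0.707). The call at 6 h was lost without DMSO 6 h replicate 2 (0.18, adjusted p = 0.109) and without NXP800 6 h replicate 1 (0.21, adjusted p = 0.102).

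**Figure D3:**
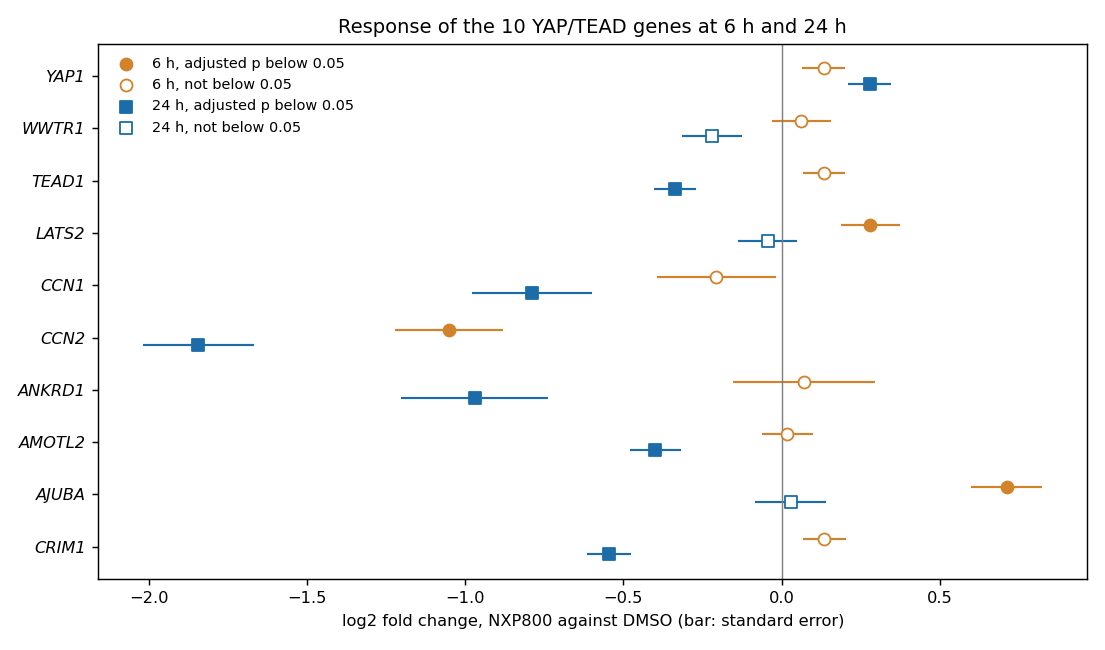
log2 fold change of NXP800 against DMSO for the 10 genes at 6 h (orange circles) and 24 h (blue squares), with bars of 1 standard error; filled symbols have an adjusted p below 0.05 in edgeR. *CCN2* lies at -1.05 and -1.84, and 6 filled squares lie below 0 at 24 h against 1 filled circle at 6 h.

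Whether the response differed between 6 h and 24 h was tested by subtracting the 6 h response from the 24 h response in the same model. Time of treatment and library set cannot be told apart in this difference. Of the 10 genes, 6 were called lower and 0 higher (12% of all genes were called higher and 13.8% lower), and with the replicate block 9 were lower and 0 higher (18.4% and 20.9%). In edgeR 0 of them were higher at an unadjusted p below 0.05 as well, and DESeq2's Wald test called 5 lower and 0 higher. The median of the 10 was -0.53 on the log2 scale, against -0.0021 over all genes. The differences called in edgeR were -0.47 ± 0.095 for *TEAD1* (adjusted p = 0.00183), -0.79 ± 0.241 for *CCN2* (0.0238), -1.04 ± 0.323 for *ANKRD1* (0.0261), -0.42 ± 0.115 for *AMOTL2* (0.0138), -0.68 ± 0.160 for *AJUBA* (0.00534) and -0.68 ± 0.098 for *CRIM1* (0.000113). For *AJUBA* the difference is the loss of the rise seen at 6 h, whereas for the other 5 the level with NXP800 was below that with DMSO at 24 h.

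The difference did not pass the threshold in edgeR for *CCN1* (-0.58 ± 0.266, adjusted p = 0.121), *LATS2* (-0.33 ± 0.131, 0.0802), *WWTR1* (-0.28 ± 0.132, 0.130) and *YAP1* (0.15 ± 0.096, 0.289). With the replicate block it passed for *CCN1* (-0.57, adjusted p = 0.000235), *LATS2* (-0.33, 0.0127) and *WWTR1* (-0.29, 0.00747). The *CCN2* difference was lost when DMSO 6 h replicate 2, NXP800 6 h replicate 1, DMSO 24 h replicate 2 or 3, or NXP800 24 h replicate 1 was left out, with adjusted p between 0.0537 and 0.0729. That of *ANKRD1* was lost without any of DMSO 6 h replicates 2 and 3, NXP800 6 h replicates 1 and 2, DMSO 24 h replicate 3 and NXP800 24 h replicate 1 (adjusted p between 0.0504 and 0.0753), and under DESeq2's Wald test (adjusted p = 0.0596). Both kept their sign in all of these. When libraries were scaled by their total count only, 6 genes were still lower and 0 higher, while over all genes 2463 were called higher and 1670 lower in place of 1924 and 2205.

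The controls also differed between the library sets. In DMSO 24 h against DMSO 6 h, which share their libraries with the comparisons above, 5 of the 10 genes were higher and 1 lower, where 21.0% of all genes were higher and 20.6% lower. *CCN1* (log2 fold change 0.75, adjusted p = 0.00460) and *CRIM1* (0.42, 0.000188) were higher, as were *CCN2* (0.47, 0.0329), *LATS2* (0.30, 0.0179) and *AJUBA* (0.29, 0.0491), and *YAP1* was lower (-0.24, 0.0103, all in edgeR). Scaling by total count only moved the median of all genes by -0.146 in this comparison, turned the calls over all genes from 3358 higher and 3291 lower to 1891 and 5241, and left *CCN1* and *CRIM1* higher and *YAP1* lower among the 10. The calls of *CCN2*, *LATS2*, *AJUBA* and *YAP1* were also lost when single libraries were left out, with adjusted p up to 0.162, 0.104, 0.137 and 0.0510. Time in culture and library set cannot be told apart here. For *CRIM1*, the mean level went from 246 ± 19.5 to 329 ± 12 CPM in DMSO and from 270 ± 13.3 to 225 ± 12.1 CPM in NXP800 (mean ± SD, n = 3).

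Beyond the 10 genes, 16 other genes of a YAP/TEAD target signature were tested. At 6 h, 8 were called higher and 2 lower, and at 24 h, 4 higher and 9 lower, with medians of 0.18 and -0.27 on the log2 scale. Over all genes 25.0% were higher and 27.8% lower at 6 h, and 27.5% and 28.6% at 24 h, so the 4 of 16 higher at 24 h are near the share of all genes. The 8 higher at 6 h became 4 without DMSO 6 h replicate 2 and 5 without NXP800 6 h replicate 1 or 2, and the 4 higher at 24 h became 2 without DMSO 24 h replicate 2. The difference of the responses was lower for 10 and higher for 2 (13.8% and 12% of all genes), or higher for 1 without NXP800 6 h replicate 2. *F3*, tissue factor, fell at both times, as *CCN2* did, going from 15.1 ± 1.32 to 7.56 ± 0.230 CPM at 6 h and from 11.0 ± 0.465 to 3.39 ± 0.320 CPM at 24 h (log2 fold changes -0.99 and -1.69, edgeR adjusted p = 5.68e-07 and 3.12e-09). *TGFB2*, a TGF-beta ligand, rose at 6 h (0.94, adjusted p = 0.000557) and fell at 24 h (-1.20, 0.000114). The RNA-binding protein gene *RBMS3* did likewise (0.58, 0.0479 and -0.69, 0.0265), and its call at 6 h was lost in 8 alternatives, DESeq2's Wald test among them.

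Some genes of the signature rose at 24 h. *GADD45A*, a growth arrest gene that stress factors also induce, rose from 37.8 ± 2.08 to 233 ± 42.1 CPM at 6 h and from 26.9 ± 1.13 to 87.2 ± 16.9 CPM at 24 h (log2 fold changes 2.63 and 1.70, edgeR adjusted p = 2.68e-10 and 1.93e-08). *IGFBP3*, an IGF-binding protein, rose at 24 h (1.79, adjusted p = 5.75e-08), as did the receptor kinase *AXL* (0.37, 0.00895), whose call was lost without DMSO 24 h replicate 2 or NXP800 24 h replicate 3 (adjusted p = 0.0579 and 0.0618). *AXL* was also higher at 6 h (0.57, adjusted p = 0.000371 in edgeR). *CCDC80*, a matrix protein, fell at 24 h (-1.54, 4.72e-05).

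Of the other TEAD factors and the VGLL proteins, which bind TEADs in place of YAP, 5 of 7 were tested, since *VGLL1* and *VGLL2* had too few reads. *TEAD3* rose at both times, by 0.31 (adjusted p = 0.0212) and 0.79 (4.32e-06) on the log2 scale in edgeR, and its call at 6 h was lost when any of DMSO 6 h replicates 1 and 2 and NXP800 6 h replicate 3 was left out. *TEAD2* fell at 24 h from 4.67 ± 1.25 to 2.20 ± 0.535 CPM (-1.08, 0.000792). *VGLL3* rose at 6 h (0.67, 1.29e-05) and fell at 24 h (-0.28, 0.0211), where the fall was lost in 5 alternatives, and *VGLL4* fell at 6 h (-0.27, 0.00508). In all, 2 of the 5 were higher and 1 lower at 6 h (25.0% and 27.8% of all genes). At 24 h, 1 was higher and 2 lower (27.5% and 28.6%). With the replicate block 2 were lower at 6 h (33.4% of all genes). A list of 5 genes is too small to set these counts apart from the shares.

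Among 30 genes of the Hippo kinases, their adaptors and upstream regulators, 9 were called higher and 8 lower at 6 h, and 4 higher and 11 lower at 24 h, or 7 lower with scaling by total count only. The counts at 6 h are near the shares of all genes (25.0% higher and 27.8% lower), and the 8 lower became 5 without DMSO 6 h replicate 2 or 3 or NXP800 6 h replicate 1. At 24 h the shares of all genes were 27.5% and 28.6%. The medians of the list were 0.045 and -0.15. At 6 h the largest rises were in the atypical cadherin *FAT4* (1.40, adjusted p = 1.24e-06 in edgeR), the FERM domain gene *FRMD6* (0.79, 4.30e-06) and *STK4*, which encodes the kinase MST1 (0.61, 2.72e-06). The largest falls were in the atypical cadherin *FAT1* (-0.72, 1.33e-06), the polarity gene *SCRIB* (-0.61, 2.50e-05) and the LATS co-activator *MOB1A* (-0.49, 5.40e-06).

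At 24 h the kinase *LATS1* (0.47, adjusted p = 0.000182 in edgeR), *STK4* (0.44, 6.34e-05) and *BTRC*, part of the ubiquitin ligase that targets YAP (0.43, 4.29e-05), had the largest rises of the list. *AMOT* (-1.43, 9.72e-05), *FAT1* (-1.03, 1.77e-08) and *NF2*, which encodes merlin (-0.70, 3.49e-07), had the largest falls. *AMOT* was a gene of low level, at 3.31 ± 0.274 CPM in DMSO 24 h and 1.23 ± 0.289 CPM in NXP800 24 h. *LATS1* was also higher at 6 h (0.22, 0.0333), as *LATS2* was, whereas *BTRC* was lower at 6 h (-0.23, 0.00787). In the difference of the responses 9 genes of the list were lower and 1 higher (13.8% and 12% of all genes). The 1 higher was *BTRC* (0.66, adjusted p = 0.000108 in edgeR). With the replicate block 3 were higher (18.4% of all genes), and 2 were with scaling by total count only or without NXP800 24 h replicate 1 or 3.

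**Figure D4:**
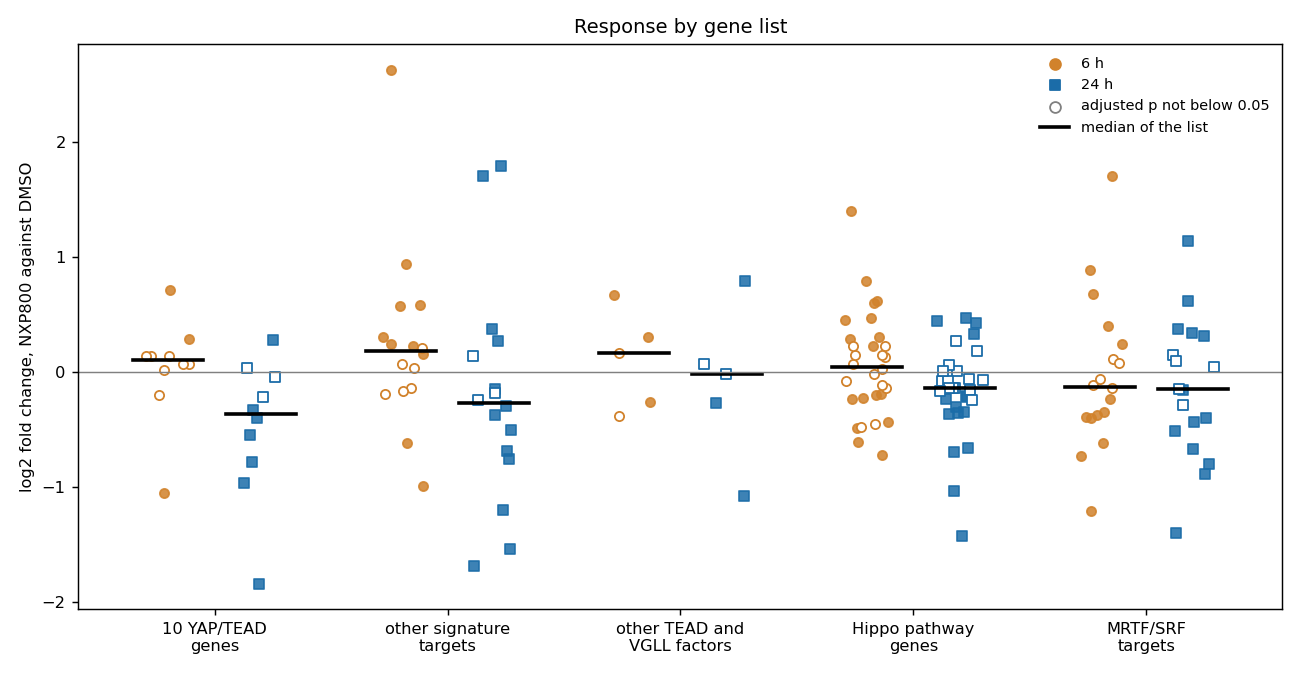
log2 fold change of NXP800 against DMSO at 6 h (orange circles) and 24 h (blue squares) for the tested genes of each list; open symbols did not reach an adjusted p below 0.05 in edgeR and black bars are list medians. The medians of the 10 genes and of the 16 other signature genes are above 0 at 6 h (0.10 and 0.18) and below 0 at 24 h (-0.37 and -0.27), with single genes on both sides at each time.

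The genes whose levels ran most like those of the 3 classic targets over the 12 libraries were found by Pearson correlation of log2 CPM among 11875 genes, as a description in which the groups and library sets are shared. They were *MTSS2*, *RNF213* and *FUZ* for *CCN1* (r = 0.947, 0.947 and 0.931), *TONSL*, *MYO18A* and *CHAF1A* for *CCN2* (0.972, 0.972 and 0.971), and *ITGBL1*, *SEC14L1* and *P3H2* for *ANKRD1* (0.962, 0.961 and 0.955). The 3 sets had no gene in common, and with 3 of 11875 genes in each this does not show that the targets differ. The genes that ran with *CCN2* were picked on these same libraries, so their falls at both times are no separate result. On the log2 scale they fell by 0.82 and 1.46 (*TONSL*), 1.38 and 2.44 (*MYO18A*) and 0.42 and 0.75 (*CHAF1A*) at 6 h and 24 h.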

How the data were processed

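Total RNA was extracted for 12 samples of MNNG/HOS cells, and strand-specific mRNA libraries were sequenced as paired reads of 100 bases. Per the labels, the authors trimmed reads with fastp 0.20.1, aligned them with STAR 2.7.5a to GRCh38.p14 (hg38) with RefSeq annotation, and counted them per gene with HTSeq 0.12.4. The deposited files hold unnormalised counts for each gene symbol, with 30810614 to 31947656 counts per library. HTSeq's rows for read pairs assigned to no feature (2.73% to 8.14%), ambiguous (2.10% to 2.43%) or not unique (1.86% to 3.37%) entered neither library sizes nor tests. The strand setting and counting mode are not given in the sources used here.

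The tests used edgeR 4.0.16 in R 4.3.3: filterByExpr, TMM scaling, 1 quasi-likelihood model over the 4 groups, and Benjamini-Hochberg adjustment over 15979 genes. SE is the log2 fold change divided by the square root of its F statistic. Groups came from the sample titles, and the dose from the study's methods. The 10 genes and all gene lists were chosen with earlier results of these data known. By rule, the text names the 10 genes, the 3 largest called rises and falls of each other list at each time, and the 3 genes most correlated with *CCN1*, *CCN2* and *ANKRD1* at a mean log2 CPM of at least 1. A gene of the signature list that this rule names is not reported here. No gene lengths were used, so levels are not compared between genes.

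Replicate numbers pair the libraries within a time point: with group means subtracted, a treated library and its same-numbered control correlated over genes at r = 0.159 to 0.329. Treated and control libraries of different numbers correlated at -0.268 to 0.0580. Once group means are subtracted, these values must offset those of the same number, so they add no separate information. The numbers are the only source of this pairing. No 2 libraries of a group agreed within sampling noise (chi-square per degree of freedom 7.36 to 26.3). Alternatives were DESeq2 1.42.0 size factors and Wald test, scaling by total count only, no low-count filter, at least 10 counts in every library, the 6 libraries of a time point alone, the replicate block, an adjusted p below 0.01, and each library left out. The main fit was tested on simulated counts with the same spread for every gene, for the 6 h, 24 h and difference comparisons. The replicate block, DESeq2's Wald test and the comparison of the DMSO groups were not tested in this way.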

Additional observations from a re-analysis of the deposited data

Results flagged for a closer look

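The response to NXP800 differed between 6 h and 24 h, by the test of the difference itself in edgeR, for 6 of the 10 genes. All 6 were lower, where 13.8% of all genes were called lower and 12% higher. Time of treatment and library set cannot be told apart in this difference. The call of *CCN2* was lost in 5 of 18 alternatives and that of *ANKRD1* in 7 of 18. At an adjusted p below 0.01 only 3 of the 6 were called, *TEAD1*, *AJUBA* and *CRIM1*. On the log2 scale, the 24 h response less the 6 h response was -0.47 for *TEAD1*, -0.79 for *CCN2*, -1.04 for *ANKRD1*, -0.42 for *AMOTL2*, -0.68 for *AJUBA* and -0.68 for *CRIM1*. For *TEAD1*, *ANKRD1*, *AMOTL2* and *CRIM1* the fold change was 0.13, 0.071, 0.018 and 0.14 at 6 h and -0.34, -0.97, -0.40 and -0.55 at 24 h. For *CCN2* it was negative at both times, and for *AJUBA* it went from 0.71 to 0.029.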

How the results depend on the processing

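For the 40 log2 values of the 10 genes, 730 alternative values were computed in 19 settings, of which 661 stayed on the same side of the threshold with the same sign, 33 lost and 28 gained a call, and 8 changed sign, all of them values that were not called. All 7 calls at 24 h kept their sign and their side of the threshold in every alternative run, with *CCN2* between -2.02 and -1.74, and so did *CCN2* and *AJUBA* at 6 h. Scaling by total count only turned *LATS2* at 24 h to 0.046 and *TEAD1* between the DMSO groups to -0.068. With each library left out in turn, the fold change ran from -0.078 to 0.076 for *AMOTL2* at 6 h, from -0.046 to 0.22 for *ANKRD1* at 6 h, from -0.066 to 0.0053 for *LATS2* at 24 h and from -0.074 to 0.11 for *AJUBA* at 24 h.

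At 6 h, 3 of the 10 genes were called in the main fit, 2 higher and 1 lower. With the libraries of the time point alone 6 were called, 5 of them higher, where 4503 of 15415 genes were higher and 4307 lower. With the replicate block 7 were called, 5 higher and 2 lower (28.9% and 33.4% of all genes). Beside the calls given in the report, the block changed no other call of these genes. Without a low-count filter 2 were lower at 6 h, *CCN1* among them, where 4447 of 28071 genes were lower. At an adjusted p below 0.01, 1 was higher at 6 h. The share of all genes at that threshold is not given here. Leaving out a library gave 2 to 6 genes called at 6 h, 1 to 5 of them higher, with 6 and 5 without NXP800 24 h replicate 2. Over all genes these runs called 3590 to 4333 higher and 3843 to 4549 lower at 6 h, of 16254 to 16344 tested. For the difference of the responses, 3 genes were called, all 3 lower, at an adjusted p below 0.01. Between the DMSO groups 3 were called, 2 of them higher, with scaling by total count only, where 1891 of all genes were higher and 5241 lower. Without a low-count filter 2 were lower there, where 3340 of 28071 genes were. At an adjusted p below 0.01, 2 were called there, 2 higher and 0 lower. Leaving out a library gave 3 to 7 called there, 2 to 6 higher and 0 to 1 lower. Over all genes these runs called 2788 to 3515 higher and 2651 to 3548 lower between the DMSO groups. The cause of these changes was not tested.

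For the other lists, under the same alternatives but chosen after seeing the data, 510 counts stayed within 1.5 times and 50 did not, and 772 values of named genes kept their call while 26 lost it and 0 changed sign. The log2 values of 0.13 to 0.14 at 6 h (*YAP1*, *TEAD1* and *CRIM1*) were called in some settings and not in others.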

Other observations

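MRTF and SRF form a second transcription complex that responds to actin, and 18 of 19 genes of their list were tested. At 6 h, 5 were called higher and 8 lower, and at 24 h again 5 higher and 8 lower, with medians of -0.13 and -0.15 on the log2 scale. Over all genes 25.0% were higher and 27.8% lower at 6 h, and 27.5% and 28.6% at 24 h, so the higher counts are near the share of all genes. *FHL2*, a LIM domain cofactor, rose from 94.6 ± 5.51 to 308 ± 21.4 CPM at 6 h and from 68.4 ± 6.79 to 150 ± 12.3 CPM at 24 h (log2 fold changes 1.70 and 1.13, edgeR adjusted p = 2.45e-10 and 1.24e-08). Also higher at 6 h were *TAGLN*, which encodes transgelin (0.88, adjusted p = 0.00119), and the co-activator *MRTFA* (0.68, 2.12e-06), and at 24 h *TGFB1I1*, a focal adhesion adaptor (0.62, 5.82e-05), and *ZYX*, zyxin (0.37, 0.00219). In edgeR, *MRTFA* was also higher at 24 h (0.34, adjusted p = 0.00125) and *ZYX* at 6 h (0.40, 0.00144). The calponin gene *CNN2* fell at both times (-1.21, 5.20e-08 and -0.89, 9.69e-07), as did the myosin light chain gene *MYL9* (-0.62, 3.55e-05 and -1.40, 5.73e-09). *ACTB*, cytoplasmic actin, was among the largest falls at 6 h (-0.73, 1.86e-05) and the tropomyosin gene *TPM1* at 24 h (-0.81, 4.53e-06). *ACTB* also fell at 24 h (-0.67, adjusted p = 3.68e-05 in edgeR). In the difference of the responses 2 were higher and 6 lower, or 5 higher with the replicate block.

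Of the 4 other CCN family genes only *CCN3* had enough reads to be tested. It was at 1.08, 1.14 and 1.18 CPM in DMSO 6 h and at 0.675, 0.734 and 0.798 CPM in NXP800 6 h, with no overlap between the groups and at most 39 counts in a library. The log2 fold change of -0.62 at 6 h (adjusted p = 0.0336 in edgeR) lost its call in 8 alternatives, and at 24 h it was 0.19 (adjusted p = 0.467).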
